A study of Mus musculus with 6 samples.

Results

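Messenger RNA levels of 8 genes that encode pore subunits of voltage-gated channels active below the spike threshold were examined in the hippocampus of mice that express a mutant Braf in excitatory neurons. The genes were chosen by name and taken by symbol from the table: Kcnq3 and Kcnq5 of the Kv7 family, Hcn2, Hcn3 and Hcn4 of the HCN family, and Kcnh1, Kcnh3 and Kcnh7 of the Kcnh family. All 8 were among the 20620 genes of the deposited count table, and all 8 passed the filter on low counts. The n-Braf mice (Braf Q241R/+ with CaMKII-Cre, 3 male mice of 33, 32 and 34 weeks) were set against control mice (Braf Q241R Neo/+, 3 male mice of 32, 32 and 31 weeks), all on a C57BL/6J background. Mice of both groups carried a Braf Q241R allele. In the controls that allele kept its Neo cassette and no Cre was present, so effects of the Cre transgene, of the cassette and of the mutant protein cannot be told apart. The CaMKII promoter places Cre in excitatory neurons, whereas RNA came from the whole hippocampus. In such bulk RNA, fewer cells of a type and less RNA per cell cannot be told apart. The title of the series links the allele to cardio-facio-cutaneous syndrome, which arises from altered RAS-ERK signalling, and the comparison asks which hippocampal transcripts differ when the mutant is expressed in mature neurons.

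The M current is a slow potassium current that opens near the resting potential, opposes repeated firing, and is carried in principal neurons by Kv7 subunits. Acetylcholine shuts it off through Gq-coupled muscarinic receptors that deplete the membrane lipid PIP2. HCN channels work the other way round: they open when the membrane is hyperpolarised, pass sodium and potassium to give an inward current, and are shifted by cyclic AMP, and in hippocampal pyramidal neurons they shorten dendritic potentials. The Kcnh family holds EAG channels (Kcnh1), ELK channels (Kcnh3) and ERG channels (Kcnh7), potassium channels that share with HCN a cyclic nucleotide binding fold and help set the resting potential and firing of central neurons.

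The families share a pore design, and the stretch that shows it is the coding sequence of the selectivity filter, the narrowest part of the channel. It is given here from GENCODE transcripts on GRCm38 for 2 HCN and 2 Kcnh members. The capitals mark 6 codons around the glycine, tyrosine (or phenylalanine), glycine signature of potassium-selective pores.
Hcn2: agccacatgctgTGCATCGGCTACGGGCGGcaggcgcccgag
Hcn4: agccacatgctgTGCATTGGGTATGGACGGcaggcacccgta
Kcnh1: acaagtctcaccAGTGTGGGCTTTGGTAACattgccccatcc
Kcnh7: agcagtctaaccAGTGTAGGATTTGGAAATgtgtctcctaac
The Hcn2 window lies in exon 4 at chr10:79728941-79728982 on the plus strand. The Hcn4 window is in exon 4 at chr9:58855573-58855614 on the plus strand. The Kcnh1 window is in exon 7 at chr1:192337742-192337783 on the plus strand and the Kcnh7 window in exon 8 at chr2:62777328-62777369 on the minus strand. Of the 42 bases, 35 were the same in Hcn2 and Hcn4 and 28 in Kcnh1 and Kcnh7. Between the HCN and Kcnh genes the number ran from 14 (Hcn2 or Hcn4 with Kcnh1) to 17 (Hcn4 with Kcnh7). HCN pores carry the tyrosine form of the signature although they pass sodium as well.

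The n-Braf libraries held 31832245, 31678125 and 30152839 assigned counts, and the control libraries 27608256, 25938650 and 25227112. Levels are CPM, the count over the library size after TMM scaling (trimmed mean of M values). Braf itself was at 185, 184 and 205 CPM in n-Braf libraries, against 116, 123 and 116 CPM in control libraries. The targeted gene thus separated the labelled groups, although gene counts do not read the substitution itself. For Braf the log2 fold change was 0.689 (SE 0.068, edgeR quasi-likelihood adjusted p = 0.0533), so the targeted gene too missed the threshold of 0.05. The 19 markers of hippocampal excitatory neurons, dentate granule cells and the CA fields were all in the table and none was at 0 in any library. Choroid plexus markers (6 of 8 tested) summed to between 21.7 and 34.8 CPM in n-Braf libraries, against 2287 CPM in control 1, 1283 CPM in control 2 and 34.3 CPM in control 3. Controls 1 and 2 therefore stood apart in these markers, and values without them are given below. In a chi-square summed over the genes of the table, control 1 alone stood apart. Its counts differed from those of each other library by a chi-square per degree of freedom of 51.1 to 69.2. For control 2 against the remaining libraries this was 9.97 to 14.1. Genes with high counts can dominate such a sum, and how many genes lay behind it was not examined. The cause was not tested.

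No member passed the threshold of an adjusted p of 0.05 in edgeR's quasi-likelihood test. Of the 8 genes, 6 had a higher and 2 a lower mean level in n-Braf, and the median log2 fold change was 0.139. Over all 20604 genes tested, 49% had a log2 fold change above 0 and the median was -0.004. Among the 14845 genes within the members' range of abundance, 50.5% were higher and the median was 0.002. The adjusted p of the members ran from 0.653 for Hcn2 to 0.994 for Hcn4, and the test called 0% of all genes. DESeq2 on the same counts called 0 of the 8 and 0.379% of all genes it tested (29 higher and 49 lower). At an unadjusted p under 0.05 there was 1 member, Hcn2, against 6.82% of all genes (3.09% for genes higher in n-Braf and 3.73% for genes lower). With library size alone as the scaling the same threshold gave 368 genes higher and 892 lower. The groups did not overlap in the same 1 member, against 11.5% of all genes (6.09% for those higher in n-Braf). In the authors' deposited table the adjusted p was 0.9997 for each of the 8, with unadjusted p-values from 0.0534 for Kcnh7 to 0.901 for Hcn4. That table has an adjusted p under 0.05 for 0.141% of its genes.

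Markers of CA1 pyramidal neurons moved with the members' direction. All 5 of 5 tested were higher in n-Braf, and they summed to 297, 295 and 283 CPM in n-Braf, against 240 to 268 CPM in the 3 controls, with no overlap. Neocortical markers, 7 of 7 higher with a median log2 fold change of 0.195, summed to 214, 194 and 164 CPM in n-Braf, against 169, 157 and 199 CPM in controls. Interneuron markers, also 7 of 7 higher but with a median of only 0.088, summed to 447 CPM in each n-Braf library, against 384, 411 and 458 CPM in controls. Oligodendrocyte markers, 6 of 6 lower, summed to 1383, 1410 and 1890 CPM in n-Braf, against 1883, 1627 and 2105 CPM in controls. Dentate granule markers, 5 of 5 lower, and markers of CA2 and CA3, 4 of 5 lower, went the other way, and their sums overlapped between the groups. Endothelial markers, 4 of 4 higher, summed to 99.2, 92.7 and 93.3 CPM in n-Braf, against 91.3, 84.0 and 88.1 CPM in controls. Ependymal markers, 4 of 4 tested lower, summed to 8.51, 5.44 and 6.91 CPM in n-Braf, against 23.7, 20.6 and 13.1 CPM in controls. The remaining lists were mixed. Markers of hippocampal excitatory neurons were 3 higher and 1 lower (median 0.166), of astrocytes 3 higher and 2 lower (0.013), and of microglia 2 higher and 2 lower (0.012). The sums of the CA1, endothelial and ependymal lists thus separated the groups, and those of the neocortical, interneuron and oligodendrocyte lists overlapped. Taken singly, no CA1 marker separated the groups and most endothelial markers did not, while each ependymal marker tested did. Of all genes tested, 11.5% did so. None of these markers was at 0 in a library, and their part in the members' values was not tested.

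**Figure D1:**
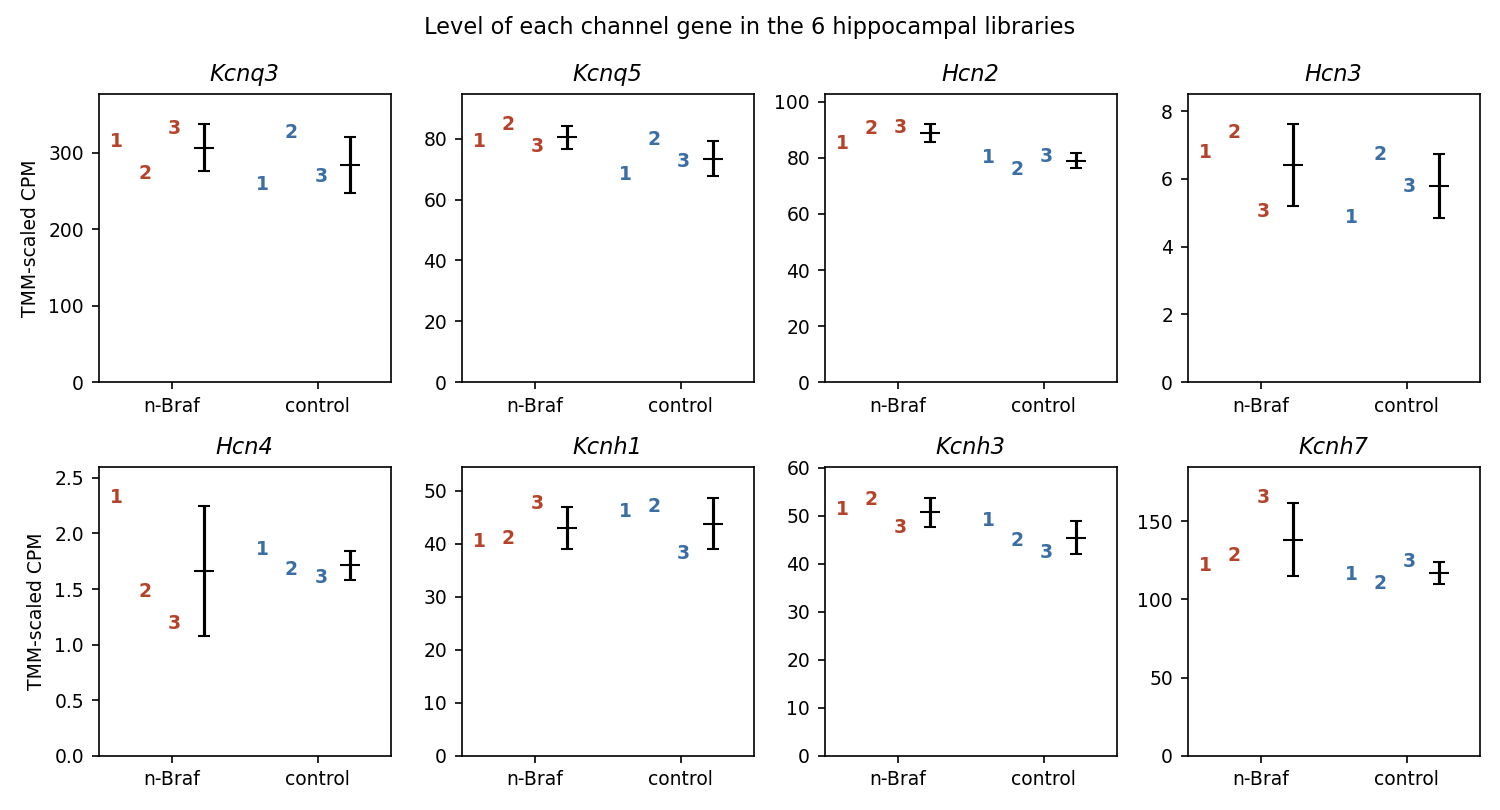
Level of each of the 8 genes in TMM-scaled CPM (vertical axes, each starting at 0) in n-Braf libraries (left, red) and control libraries (right, blue). Each numeral is 1 library and gives its replicate number, and the bar beside it is the mean ± SD (n = 3 each). Hcn2 is the 1 gene whose groups do not overlap, with its lowest n-Braf library at 85.2 CPM and its highest control library at 80.6 CPM.

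**Figure D2:**
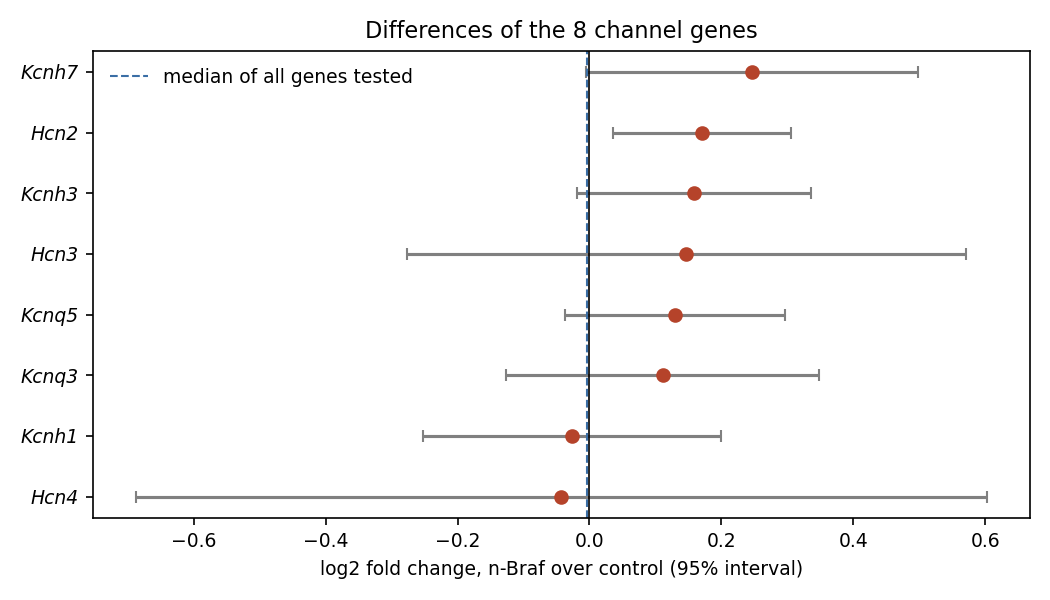
Log2 fold change of n-Braf over control for each gene (points) with the 95% interval of the quasi-likelihood fit (bars). The dashed line is the median of all genes tested, -0.004. The interval of Hcn2 starts at 0.035, and the intervals of the other 7 genes include 0.

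Compared per kilobase of exon in the GENCODE M21 annotation, Hcn2 had the highest level. It averaged 27.8 ± 0.985 CPM per kb in n-Braf libraries and 24.7 ± 0.827 CPM per kb in control libraries (SD, n = 3 each), and Kcnq3 came next with a level of 20.9 ± 2.07 and 19.3 ± 2.47 CPM per kb in the same groups. The ranges of these genes over the 6 libraries, 23.7 to 28.4 for Hcn2 and 17.6 to 22.6 for Kcnq3, did not overlap. Kcnq5 (mean level over 6 libraries 10.0 CPM per kb), Kcnh3 (8.36), Kcnh7 (8.36) and Kcnh1 (5.91) followed. The ranges of Kcnq5, Kcnh3 and Kcnh7 overlapped, while every library of Kcnh1 (5.21 to 6.48) was below every library of those 3 genes. Hcn3 at 1.47 and Hcn4 at 0.276 CPM per kb were the lowest, and neither overlapped a neighbour. Over the length of the longest coding transcript in place of all exons, Kcnh3 (13.0 CPM per kb) stood above Kcnq5 (11.0), so their order depends on which length is used. Kcnq3 then averaged 25.0 CPM per kb with a range of 21.8 to 28.1, which overlaps that of Hcn2 (mean 26.2), so their separation too holds for the exon length alone.

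**Figure D3:**
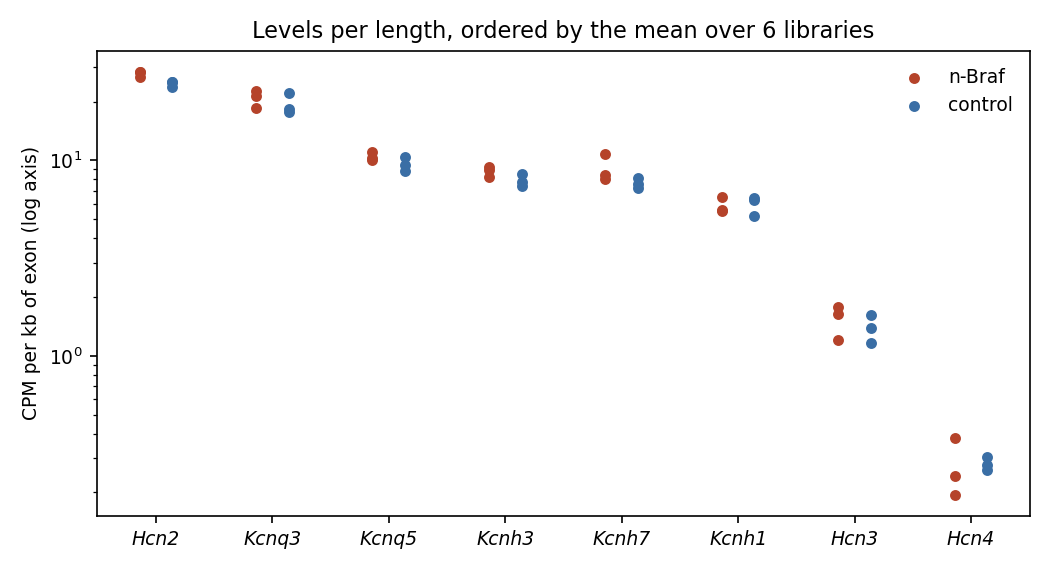
Level of each gene in CPM per kb of annotated exon (vertical log axis), 1 point a library, n-Braf in red on the left and control in blue on the right of each gene. Genes are ordered by their mean over the 6 libraries, from Hcn2 (26.2) to Hcn4 (0.276).

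Among the Kv7 genes, Kcnq3 (ENSMUSG00000056258, GRCm38 chr15:65986387-66286642, minus strand), whose subunit pairs with other Kv7 subunits in neuronal M channels, had 10073, 8682 and 9766 counts in n-Braf libraries, against 6924, 8711 and 6906 in control libraries. Scaled for depth these were 315, 273 and 332 CPM in n-Braf, against 258, 326 and 269 CPM in controls. Control 2 lay between n-Braf 1 and n-Braf 3, n-Braf 2 was close to control 3, and the groups overlapped. Its log2 fold change was 0.11 (SE 0.11; edgeR quasi-likelihood adjusted p = 0.912), and its 95% interval ran from 0.916-fold to 1.27-fold. With age as a covariate the value for Kcnq3 turned to -0.07 (SE 0.13). It was 0.05 without control 1, 0.07 without control 3 and 0.05 without n-Braf 3, and 0.22 without control 2 and 0.19 without n-Braf 2.

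Kcnq5 (ENSMUSG00000028033, chr1:21398403-21961942, minus strand), the other Kv7 member and a subunit that can form M channels with Kcnq3, was at 79.2, 84.7 and 77.4 CPM in n-Braf, against 68.2, 79.6 and 72.5 CPM in controls. Control 2 lay inside the n-Braf range and the other controls below it. For Kcnq5 the log2 fold change was 0.13 (SE 0.07; edgeR quasi-likelihood adjusted p = 0.812), with an interval of 0.975-fold to 1.23-fold. It was 0.08 without control 1 and 0.19 without control 2 (unadjusted p = 0.0339, adjusted p = 0.672 in the quasi-likelihood fit). Control 2 was the highest control for both Kv7 genes. Of the summed per-kilobase level of the pair, Kcnq3 held 66.5% ± 3.33 in n-Braf and 66.8% ± 1.14 in controls (SD, n = 3 each), a difference smaller than either spread.

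Among the HCN genes, Hcn2 (ENSMUSG00000020331, chr10:79716634-79736108, plus strand), which encodes a widely expressed brain HCN subunit with a strong response to cyclic AMP, was at 85.2, 90.4 and 90.8 CPM in n-Braf, against 80.3, 75.9 and 80.6 CPM in controls. Every n-Braf library was above every control library, and the coefficient of variation, 3.54% in n-Braf and 3.35% in controls, was the smallest of the 8 genes. The log2 fold change was 0.17 (SE 0.06), with an unadjusted p of 0.0195 and an adjusted p of 0.653 in edgeR's quasi-likelihood test. The 95% interval of the difference ran from 1.02-fold to 1.24-fold. In the authors' deposited edgeR result the unadjusted p of Hcn2 was 0.0638. Over 16 alternative settings the log2 fold change stayed between 0.141 and 0.197, with an unadjusted p under 0.05 in 12 of them. Without controls 1 and 2 it was 0.14 with an unadjusted p of 0.21 (quasi-likelihood, control 3 alone on the control side).

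Hcn3 (ENSMUSG00000028051, chr3:89146074-89160196, minus strand), an HCN subunit with little response to cyclic AMP, was at 6.79, 7.36 and 5.04 CPM in n-Braf, against 4.85, 6.73 and 5.76 CPM in controls. n-Braf 3 was below 2 of the controls and n-Braf 1 and 2 were above all of them. For Hcn3 the log2 fold change was 0.15 (SE 0.19; edgeR quasi-likelihood adjusted p = 0.947). In 2 of the 6 libraries the estimated count was not whole, so reads shared with another gene were divided there. Values on leaving out 1 library ran from 0.0337 (without n-Braf 2) and 0.0346 (without control 1) to 0.272 (without control 2) and 0.289 (without n-Braf 3), and with age as a covariate Hcn3 was at 0.40, so its size moved by more than 1.5 times.

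Hcn4 (ENSMUSG00000032338, chr9:58823412-58863175, plus strand), the pacemaker subunit of the heart, which in brain is prominent in thalamus and medial habenula, had 74, 47 and 35 counts in n-Braf, against 50, 45 and 41 counts in controls. These were 2.32, 1.48 and 1.19 CPM in n-Braf, against 1.86, 1.68 and 1.60 CPM in controls. The control libraries lay inside the n-Braf range, with n-Braf 1 above and n-Braf 2 and 3 below them. The coefficient of variation between n-Braf mice was 35.1%, where counting alone gives 11.6% at the highest count and 16.9% at the lowest. The 95% interval of the difference was 0.621-fold to 1.52-fold. Its log2 fold change was -0.04 (SE 0.29; edgeR quasi-likelihood adjusted p = 0.994). Markers of thalamus and habenula (6 of 9 in the table) summed to 40.4, 46.2 and 47.7 CPM in n-Braf, against 60.2, 38.9 and 52.2 CPM in controls. n-Braf 1, highest in Hcn4, was the second lowest library in those markers. Their part in the Hcn4 values was not tested. Without n-Braf 1 the value for Hcn4 was -0.36, and without n-Braf 3 it was 0.14.

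Of the summed per-kilobase level of the 3 HCN members, Hcn2 held 93.9% ± 1.24 in n-Braf and 93.6% ± 0.949 in controls (SD, n = 3 each). Hcn3 held 5.20% ± 0.990 in n-Braf and 5.29% ± 0.973 in controls, and Hcn4 0.923% ± 0.351 in n-Braf and 1.06% ± 0.0873 in controls. The shares of Hcn2 and Hcn3 differed between the groups by less than either spread. That of Hcn4 differed by less than the n-Braf spread and by more than the control spread, and the 3 control values lay inside the n-Braf range.

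Among the Kcnh genes, Kcnh1 (ENSMUSG00000058248, chr1:192190774-192510159, plus strand), which encodes the EAG channel, was at 40.4, 40.9 and 47.5 CPM in n-Braf, against 46.1, 47.0 and 38.2 CPM in controls. n-Braf 3 was the highest library and control 3 the lowest, and the groups crossed. Its log2 fold change was -0.03 (SE 0.10; edgeR quasi-likelihood adjusted p = 0.987), with an interval of 0.839-fold to 1.15-fold. Without controls 1 and 2 the sign turned, to 0.17 (SE 0.13).

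Kcnh3 (ENSMUSG00000037579, chr15:99224861-99242817, plus strand), an ELK channel of forebrain pyramidal neurons, was at 51.3, 53.4 and 47.5 CPM in n-Braf, against 49.1, 44.9 and 42.4 CPM in controls. Control 1 was above n-Braf 3, and otherwise the groups were separate. Its log2 fold change was 0.16 (SE 0.08; edgeR quasi-likelihood adjusted p = 0.781), with an interval of 0.987-fold to 1.26-fold. Without controls 1 and 2 it was 0.26. On leaving out 1 library it ran from 0.11 (without control 3, unadjusted p = 0.24) to 0.22 (without control 1, unadjusted p = 0.0281 and adjusted p = 0.999 in the quasi-likelihood fit).

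Kcnh7 (ENSMUSG00000059742, chr2:62693414-63184287, minus strand), an ERG channel expressed in neurons, had the highest log2 fold change of the 8. It was at 122, 128 and 165 CPM in n-Braf, against 116, 110 and 124 CPM in controls. n-Braf 3 stood above all other libraries, and n-Braf 1 was just below control 3. The log2 fold change was 0.25 (SE 0.11; edgeR quasi-likelihood adjusted p = 0.741), with an interval of 0.996-fold to 1.41-fold. Over 16 alternative settings it stayed above 0, with an unadjusted p under 0.05 in 4 and a lowest adjusted p of 0.647 (DESeq2). It was 0.10 without n-Braf 3 and 0.10 with age as a covariate. n-Braf 3 was the oldest mouse, at 34 weeks, so that library and age cannot be told apart here. Dentate granule markers (5 of 5 tested) summed to 167, 178 and 348 CPM in n-Braf, against 264, 287 and 226 CPM in controls, and were highest in the same library. Camk2a was also highest there, at 2416, 2146 and 2904 CPM in n-Braf, against 2220, 2325 and 2120 CPM in controls. CA2 and CA3 markers summed to 94.1, 93.5 and 106 CPM in n-Braf, against 104, 105 and 92.7 CPM in controls. Hippocampal excitatory neuron markers, Camk2a among them, summed to 3775, 3423 and 4529 CPM in n-Braf, against 3615, 3836 and 3425 CPM in controls. These sums were also highest in n-Braf 3. Interneuron markers were at 447 CPM in each n-Braf library. CA1 and neocortical markers went the other way. In n-Braf 3 the sums of CA1 markers (297, 295 and 283 CPM in n-Braf) and neocortical markers (214, 194 and 164 CPM) were the lowest of the n-Braf libraries. The part of these markers in the Kcnh7 level was not tested. Its estimated counts were not whole in any of the 6 libraries, so the reads divided with other genes add an error that is not in these intervals.

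Of the summed per-kilobase level of the 3 Kcnh members, Kcnh1 held 24.6% ± 0.680 in n-Braf and 27.7% ± 2.42 in controls (SD, n = 3 each), a difference larger than either spread. The groups still overlapped, since n-Braf 3 (25.4%) was above control 3 (25.1%), and the share was not tested. Kcnh3 held 37.3% ± 4.36 in n-Braf and 36.7% ± 1.27 in controls. Kcnh7 held 35.7%, 36.1% and 42.3% in n-Braf, against 33.9%, 33.6% and 39.3% in controls. The group means of Kcnh3 and of Kcnh7 differed by less than the n-Braf spread and by less than the control spread.

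**Figure D4:**
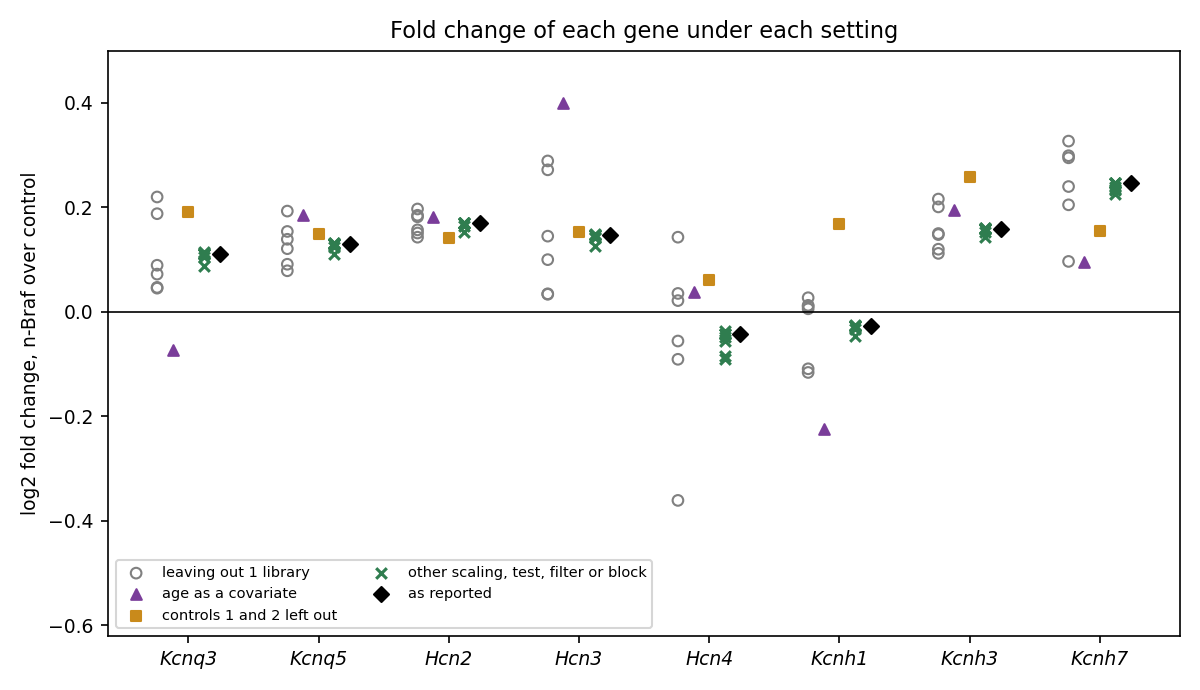
Log2 fold change of n-Braf over control (vertical axis) for each gene under each setting: as reported (black), with 1 library left out (open circles), with age as a covariate (triangles), without controls 1 and 2 (squares), and with another scaling, test, filter or block (crosses). Hcn2 stays between 0.141 and 0.197, while Kcnq3, Hcn4 and Kcnh1 take both signs.

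The order of the libraries differed from gene to gene. In log2 deviations from the 6-library mean, n-Braf 3 was high in Kcnh7 (0.39) and Kcnq3 (0.18) and low in Hcn4 (-0.45) and Hcn3 (-0.25). n-Braf 1 was high in Hcn4 (0.47) and low in Kcnh1 (-0.10). Control 1 was low in Hcn3 (-0.31), Kcnq3 (-0.19) and Kcnq5 (-0.17) but above the mean in Hcn4 (0.17), Kcnh1 (0.09) and Kcnh3 (0.03). The CPM of all 8 genes summed to 702, 679 and 767 in n-Braf, against 624, 691 and 634 in controls, with n-Braf 2 below control 2. Without controls 1 and 2 all 8 genes had a log2 fold change above 0, from 0.0615 to 0.258, with 0 members past an unadjusted p of 0.05. Without control 1 the median over the members was 0.0621, where it was 0.139 with all libraries.

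The 9 other pore genes of the 3 families, all in the table, had 6 members higher and 3 lower in n-Braf (median log2 fold change 0.192). Of these 0 passed the threshold, 1 had an unadjusted p under 0.05, and the groups did not overlap in 1 (11.5% over all genes). Partners and regulators were taken from a list of auxiliary subunits, calmodulins, scaffolds and the muscarinic route to PIP2. Of its 24 symbols 19 were tested, and some genes stood in the list under both an older and a newer symbol. Here 13 were higher and 6 lower, with a median of 0.074, and 0 passed the threshold in either direction. The 5 with an unadjusted p under 0.05 (6.82% over all genes) included Kcne2, Pex5l, Pip5k1c and Chrm1, the 4 with the smallest p.

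Pex5l, which encodes the HCN auxiliary subunit TRIP8b that controls channel trafficking and cyclic AMP sensitivity, was at 228, 227 and 249 CPM in n-Braf, against 194, 205 and 213 CPM in controls. All n-Braf libraries were above all controls. Its log2 fold change was 0.20 (SE 0.07; edgeR quasi-likelihood adjusted p = 0.64). Chrm1, the muscarinic receptor gene best known for closing M channels, was at 160, 152 and 166 CPM in n-Braf, against 145, 147 and 138 CPM in controls, and the groups were again separate (log2 fold change 0.15, SE 0.06; adjusted p = 0.721 in edgeR's test). Pip5k1c, which encodes a kinase that makes PIP2, was at 286, 301 and 272 CPM in n-Braf, against 255, 252 and 255 CPM in controls (log2 fold change 0.17, SE 0.06; adjusted p = 0.667 in edgeR's test), and its groups did not overlap either. None of these passed the threshold. They were named for their small p, which favours separate groups. Among the 19 partners tested the groups did not overlap in 4 that were higher and 0 that were lower in n-Braf. Over all genes 6.09% were higher without overlap. Kcne2, a small auxiliary subunit gene known for its role in choroid plexus, was at 0.376, 0.0944 and 0.170 CPM in n-Braf, against 14.7, 6.88 and 0.234 CPM in controls. It was high in controls 1 and 2, the libraries high in choroid plexus markers, and control 3 was inside the n-Braf range.

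The profile most like that of Hcn2, the member with the smallest p, was sought among 8935 named genes with a mean of at least 10 CPM. The measure was the root mean square difference of centred log2 CPM over the 6 libraries. The nearest were Olig1 (0.020), Ifrd1 (0.026) and Pou6f1 (0.027), where the median gene was at 0.129 and the spread of Hcn2 itself was 0.094. Olig1, a transcription factor gene of the oligodendrocyte lineage, was at 29.8, 30.9 and 31.7 CPM in n-Braf, against 28.5, 25.8 and 28.1 CPM in controls. Like Hcn2 it was lowest in control 2, a likeness that the search itself selected for. The oligodendrocyte markers above were 6 of 6 lower in n-Braf.

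Promoter windows, 250 bases before to 50 after a gene's start, were available from RefSeq (GRCm38.p6) for 5 of the 8 members in 6 windows: Kcnq5, Hcn2, Hcn4, Kcnh1 and Kcnh7. The windows of the gene with the smallest p, the gene with the highest fold change and a gene near 0 are shown. Capitals mark the GC box GGGCGG and the ETS core CCGGAAG, each searched on both strands, and no match of either overlaps a match of the other.
Hcn2: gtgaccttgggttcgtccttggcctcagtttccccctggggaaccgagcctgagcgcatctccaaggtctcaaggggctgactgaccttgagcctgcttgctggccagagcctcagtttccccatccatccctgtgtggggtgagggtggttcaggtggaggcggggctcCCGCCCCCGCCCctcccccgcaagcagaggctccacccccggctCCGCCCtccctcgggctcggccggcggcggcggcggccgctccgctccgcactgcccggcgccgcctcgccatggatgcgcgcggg
Kcnh7: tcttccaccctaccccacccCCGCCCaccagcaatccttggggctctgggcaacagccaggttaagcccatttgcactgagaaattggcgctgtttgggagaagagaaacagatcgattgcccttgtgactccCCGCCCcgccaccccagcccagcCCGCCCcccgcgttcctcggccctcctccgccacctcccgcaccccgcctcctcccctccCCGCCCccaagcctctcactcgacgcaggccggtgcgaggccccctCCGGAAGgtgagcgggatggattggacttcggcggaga
Kcnh1: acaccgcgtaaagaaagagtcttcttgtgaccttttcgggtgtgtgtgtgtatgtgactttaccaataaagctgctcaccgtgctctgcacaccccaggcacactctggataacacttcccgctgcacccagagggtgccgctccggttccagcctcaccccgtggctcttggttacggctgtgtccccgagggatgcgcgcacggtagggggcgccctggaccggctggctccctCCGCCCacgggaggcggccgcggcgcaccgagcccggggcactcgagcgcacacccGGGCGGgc
They lie at chr10:79716384-79716683 (Hcn2, plus strand), chr2:63184238-63184537 (Kcnh7, minus strand) and chr1:192190527-192190826 (Kcnh1, plus strand). The GC box, bound by Sp family factors, occurred 3 times in Hcn2, 4 times in Kcnh7, 2 times in Kcnh1 and 2 times in Hcn4, and was in 35.7% of 32851 promoter windows. The ETS core, the letters read by ETS factors that ERK can phosphorylate, occurred in the Kcnh7 window alone among the 6, at position 263 counted from the 5′ end, and was in 8.86% of all windows. The cyclic AMP element TGACGTCA (1.79% of all windows) and the Egr site GCGTGGGCG (0.612%) were in none of the 6, which says only that these letters are not in these windows. Neither of the 2 Kcnq5 windows held a GC box. GC content was 72.3% for Hcn2, 71.7% for Hcn4, 67.7% for Kcnh7, 66% for Kcnh1 and 62.7% and 46% for the Kcnq5 windows, against a median of 52.7% over all windows.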

How the data were processed

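Total RNA (10.0 ng) from the hippocampus of 6 mice was made into libraries with a stranded SMART-Seq kit, per the labels' protocols. The authors used bcl2fastq 2.20, fastp 0.20.1, STAR, RSEM and edgeR 3.36.0 on mm10, per the submitters' processing notes. Strand setting and annotation are not given in the sources used here. In the deposited table are the authors' expected counts per gene, which are estimates that need not be whole. It also holds the authors' log2 fold change, mean log2 CPM, p-value and adjusted p-value. For each of its 20620 genes at least 3 libraries had a count of 8.75 or more, so rare genes were absent.

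Expected counts were rounded. edgeR 4.0.16 (R 4.3.3) filtered with filterByExpr (minimum count 10, 20604 genes kept), scaled by TMM and tested n-Braf against control by quasi-likelihood, with Benjamini-Hochberg adjustment over all genes and a threshold of 0.05. Intervals are 95% intervals of that fit. Profiles used log2 CPM with a prior count of 2. DESeq2 1.42.0 and limma 3.58.1 served as alternatives. The test was tried on simulated data first. Each mouse has its own number in the labels, and no library was a copy of another (chi-square per degree of freedom between pairs of libraries, 8.89 to 69.2). Group labels came from the sample descriptions. The members, lists and alternatives were chosen with earlier results of these data known. All members, Braf and Camk2a, and the 4 partners with the smallest p were named. The 3 profiles nearest to the member with the smallest p were also named. Some genes within the rule are not reported here. Gene coordinates and lengths are from GENCODE M21 (GRCm38, the assembly mm10 names), matched by gene identifier.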

Additional observations from a re-analysis of the deposited data

How the results depend on the processing

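Over 16 alternative settings, 0 of the 8 members passed an adjusted p of 0.05 in any. Kcnq5, Hcn2, Hcn3, Kcnh3 and Kcnh7 stayed above 0 in all 16. Kcnq3 turned with age as a covariate (-0.0738), as did Hcn4 (0.0384). Without controls 1 and 2, where the spread is that of n-Braf and control 3 is taken to share it, Hcn4 was at 0.0615 and Kcnh1 at 0.168. Leaving out 1 library gave Hcn4 values of -0.361 to 0.143, Kcnh1 values of -0.116 to 0.0271 and a median over the members of 0.0621 (without control 1) to 0.171, and the count of genes past the threshold over all genes ran from 0 to 82 (without control 3). That count, 0 as reported, was 78 with DESeq2, 3 without controls 1 and 2, 2 at an adjusted p of 0.1 and 1 by quasi-likelihood without legacy settings, an alternative added after seeing the data; the cause was not tested. At an unadjusted p under 0.05 the quasi-likelihood test gave 637 genes higher and 768 lower. With library size alone as the scaling these were 368 and 892, and without control 3 they were 556 and 917. With the replicate number as a block the median was 0.137 and 0 genes passed. Same-numbered libraries deviated with correlations of 0.103, -0.0457 and -0.0145, so the numbers were not taken as pairs. With 3 libraries a group, the quasi-likelihood p-values set a difference against the spread between these mice. That spread is estimated in part from other genes (total degrees of freedom of the fit at least 9.08). Hcn4 has the fewest counts of the members, 35 to 74.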
